A study of Mus musculus with 5 samples.

Results

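Transcripts of 36 genes of mitochondrial fatty acid uptake and beta-oxidation were measured in the injured mouse kidney. The genes were taken by gene name from the deposited gene tables, and each was found once among 35478 genes listed. All 36 passed the filter on low counts and were among the 16394 genes tested between 2 genotypes. The tissue was kidney, given as kidney cortex in the study's methods, from male mice of the strain C57BL/6J;129, whose sample titles give C57BL/6J alone, aged 7 to 8 weeks at surgery, 1 library per mouse. The control group held 2 Prdm16fl/fl mice, labelled mouse 1 and mouse 3, in which loxP sites flank exon 9 of Prdm16 and no Cre is present. The other group held 3 Ksp-Cre/Prdm16fl/fl mice, labelled mouse 1 to mouse 3 and called Ksp-Cre mice here for short, which carry the same floxed alleles and a Cre driven in tubular epithelial cells, so the gene stays intact in other cells of the kidney. All 5 mice had unilateral ischemia-reperfusion injury (UIRI): the left renal pedicle was clamped for 35 minutes on a metal bath at 38.5 °C, the right kidney was removed on day 10, and the mice were killed 24 hours later, 11 days after the injury. No sham-operated library was analysed here, so every value is from an injured kidney and the comparison is between genotypes only.

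The kidney tubule, above all its proximal segment, draws most of its ATP from fatty acids. Transporters at the plasma membrane such as CD36 and the SLC27 family take fatty acids up, acyl-CoA synthetases join them to coenzyme A, and the carnitine shuttle, with CPT1 on the outer and CPT2 on the inner mitochondrial membrane, carries long chains into the matrix. There, each turn of beta-oxidation removes an acetyl-CoA by dehydrogenation, hydration, a further dehydrogenation and thiolysis, and the electrons of the first step reach the respiratory chain through the electron transfer flavoprotein and its dehydrogenase. The nuclear receptor PPARα is a known activator of many of these genes, and it binds as a heterodimer with RXR to a direct repeat of AGGTCA with 1 base between the copies. Loss of fatty acid oxidation is a recognised feature of injured tubules, and PRDM16, best known from brown fat, was studied here as a regulator of tubular mitochondria.

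Between 14939040 and 16425161 reads were counted per library. Ksp-Cre mouse 3 stood apart from the other 4 libraries. Its log2 CPM (counts per 1000000 counts, scaled between libraries) correlated with theirs at r = 0.943 to 0.96 across genes, which are not independent replicates, against 0.989 for the Prdm16fl/fl pair and 0.991 for the pair of Ksp-Cre mice 1 and 2. It also lay at 72.2 on the first principal component, which held 56.4% of the variance, with the others between -36.2 and -1.92. The log2 fold changes and calls of members that turned on this mouse are therefore given without it as well. Prdm16 itself was at 25.3 and 20.02 CPM in the Prdm16fl/fl mice and at 17.1, 17.0 and 17.99 CPM in the Ksp-Cre mice (log2 fold change -0.38 ± 0.15 SE, edgeR adjusted p = 0.259). These counts run over the whole gene, in tissue of mixed cell types, and so do not check the deletion of exon 9. Markers of the labelled tissue were abundant, with the 14 proximal tubule markers summing to between 8824 and 23075 CPM.

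Most of the 36 genes had lower transcript levels in Ksp-Cre kidneys, by uneven amounts, and few passed the test. A log2 fold change below 0 was found for 29 of the 36 genes, against 46% of all genes tested, and the median was -0.46 against 0.04 over all genes tested. In 20 of the 36, all Ksp-Cre mice lay below both Prdm16fl/fl mice, against 21.3% of all genes tested, and in none did all 3 lie above, against 20.3%. In the edgeR quasi-likelihood test, 2 genes passed an adjusted p under 0.05 and were lower, Acsm2 and Acot13, against 0.872% of the genes tested. None was higher, against 0.104%, and DESeq2 called none higher either, against 1.83%. At an unadjusted p under 0.05, 19 members were lower, against 11.2% of all genes tested, and none was higher, against 7.64%. The summed level of the 36 genes in TPM, a unit that corrects for gene length, was 9646 and 10573 in the Prdm16fl/fl mice and 6923, 7744 and 8392 in the Ksp-Cre mice. The 2 groups did not overlap in this sum. RNA came from cortex tissue with its cell types unseparated, so fewer cells of a type and less RNA per cell cannot be told apart.

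The number of calls moved strongly with the libraries and the tool, while the median stayed below 0. Without Ksp-Cre mouse 3, 24 of the 36 genes were called lower, against 11% of all genes tested in that fit, none was called higher, against 7.82%, and the median was -0.58. Those 24 were 19 of the 20 genes without overlap, all but Decr1 (edgeR adjusted p = 0.0603), and 5 of the 16 whose groups overlapped with all 5 mice, namely Acadvl, Acad11, Eci1, Cpt2 and Slc27a2. Leaving out Prdm16fl/fl mouse 1, Prdm16fl/fl mouse 3, Ksp-Cre mouse 1 or Ksp-Cre mouse 2 instead left no call among the members or in the whole table, and 18, 13, 16 and 16 members were then lower at an unadjusted p under 0.05, against 7.2%, 5.19%, 9.49% and 8.88% of all genes tested in the same fits. A block on the mouse numbers that both genotypes share also left no call lower among the members or in the whole table, with 16 members lower at an unadjusted p under 0.05, against 8.44% of all genes. In the fits that left out a Prdm16fl/fl mouse, the lone Prdm16fl/fl library is assumed to vary as the other group does. DESeq2 on the same 5 libraries called 14 members lower, against 5.26% of all genes: Acadm, Hadh, Etfa, Etfb, Acsm1, Acsm2, Acsm3, Acsm5, Acss1, Acot13, Fabp3, Acsf3, Bdh1 and Oxct1. In edgeR with all 5 libraries, 10 members were called lower with no filter beyond 1 count (1.59% of all genes) and 3 with at least 10 counts in every library (1.3%). Acsm2 was the single member called lower with scaling by library size alone (0.226%), with upper quartile scaling (0.622%), after correction for the length and GC content of genes (0.243%), and where a log2 fold change of at least 1 was required as well (0.628%).

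**Figure D1:**
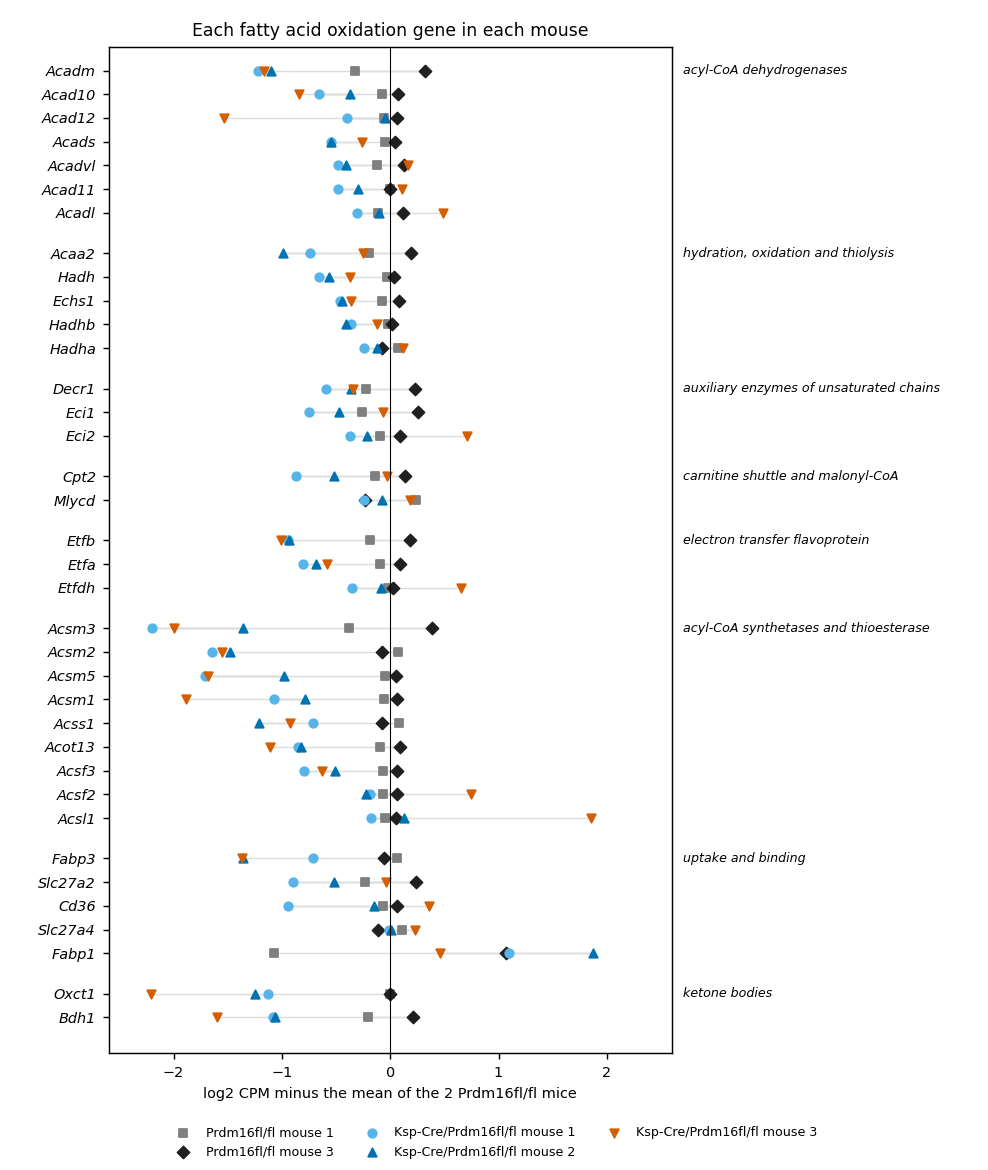
Level of each of the 36 genes (rows, grouped by role) in each of the 5 mice, as log2 CPM minus the mean of the 2 Prdm16fl/fl mice, 1 symbol per mouse. All Ksp-Cre symbols lie left of both Prdm16fl/fl symbols for 20 genes, and the symbol of Ksp-Cre mouse 3 lies right of both for 10.

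Acyl-CoA dehydrogenases catalyse the first step of each turn and differ by the length of chain they accept. Of the 7 in the group, 6 had a log2 fold change below 0, against 46% of all genes tested, and none passed the edgeR test. In 3 of the 7, all Ksp-Cre mice lay below both controls, against 21.3% of all genes tested. Acadm, the medium-chain enzyme and the most abundant of the 7 by TPM, was at 549 and 861 CPM in the Prdm16fl/fl mice and at 294.5, 321 and 307 CPM in the Ksp-Cre mice. The Prdm16fl/fl mice differed widely from each other, yet both lay above all 3 Ksp-Cre mice. Its log2 fold change was -1.20 ± 0.21 (SE), just outside the threshold (edgeR adjusted p = 0.0565). Without Ksp-Cre mouse 3 the log2 fold change was nearly the same, -1.19. Acadm was called there (edgeR adjusted p = 0.0047), in a fit that called 11% of all genes tested lower. Without Ksp-Cre mouse 1 or mouse 2 it was not called (edgeR adjusted p = 0.161 and 0.186).

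Acadl, the long-chain enzyme and next in level, ran otherwise. It was at 320 and 375 CPM in the Prdm16fl/fl mice and at 281, 322 and 486 CPM in the Ksp-Cre mice. Mouse 3 lay above both controls, mouse 1 below both and mouse 2 between them, so the fitted log2 fold change of 0.06 ± 0.26 (SE, edgeR adjusted p = 0.916) averages values on both sides of the controls, and it was -0.20 without mouse 3. Acads, for short chains, and Acadvl, for very long chains at the inner membrane, had log2 fold changes of -0.45 and -0.22 (edgeR adjusted p = 0.161 and 0.649), and without mouse 3 of -0.55 and -0.45, where both were called (0.0063 and 0.0305). Acad10 and its chromosomal neighbour Acad12 stood at -0.61 and -0.54, and Acad11, which acts on longer chains, at -0.20. Without mouse 3 these were -0.51, -0.21 and -0.38, with Acad10 and Acad11 called (edgeR adjusted p = 0.0224 and 0.0332) and Acad12 not (0.374). Within this family, then, Acadm, Acads and Acad10 were lower in all 3 Ksp-Cre mice than in both controls. Acadl, Acadvl, Acad11 and Acad12 overlapped with the controls.

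The stretches before the transcription starts of these paralogs are shown because their measured differences were unlike in size, from -1.20 for Acadm to 0.06 for Acadl. The value of Acadl was small beside its SE of 0.26, and without mouse 3 it was below 0, as were the others. They are the 250 bases before the start that RefSeq gives in the build GRCm38.p6, written 5′ to 3′ on the strand of the gene. Capitals mark AGGTCA or its reverse complement, the hexamer to which many nuclear receptors bind. All are on the minus strand, at chr3:153944644-153944893 (Acadm), chr5:115119347-115119596 (Acads), chr1:66863310-66863559 (Acadl) and chr11:70015429-70015678 (Acadvl).
Acadm: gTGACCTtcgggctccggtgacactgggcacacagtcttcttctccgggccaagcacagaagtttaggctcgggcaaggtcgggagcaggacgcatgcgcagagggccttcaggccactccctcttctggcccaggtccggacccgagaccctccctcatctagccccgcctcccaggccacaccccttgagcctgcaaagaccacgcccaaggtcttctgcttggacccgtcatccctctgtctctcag
Acads: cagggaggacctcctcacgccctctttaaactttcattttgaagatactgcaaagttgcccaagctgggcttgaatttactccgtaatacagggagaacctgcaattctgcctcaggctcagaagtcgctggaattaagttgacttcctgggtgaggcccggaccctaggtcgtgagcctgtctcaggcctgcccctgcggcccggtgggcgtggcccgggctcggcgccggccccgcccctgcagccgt
Acadl: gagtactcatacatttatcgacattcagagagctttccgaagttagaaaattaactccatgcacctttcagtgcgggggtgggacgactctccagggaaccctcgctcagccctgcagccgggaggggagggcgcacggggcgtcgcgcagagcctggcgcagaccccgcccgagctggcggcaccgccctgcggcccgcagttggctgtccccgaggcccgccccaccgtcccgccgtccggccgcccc
Acadvl: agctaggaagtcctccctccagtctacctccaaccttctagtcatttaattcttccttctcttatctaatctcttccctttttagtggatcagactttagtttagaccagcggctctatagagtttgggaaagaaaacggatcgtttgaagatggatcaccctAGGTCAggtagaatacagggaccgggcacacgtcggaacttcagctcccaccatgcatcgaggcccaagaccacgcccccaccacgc
The window of Acadm holds 1 hexamer at its far end and that of Acadvl 1 closer to the start, while those of Acads and Acadl hold none. G and C made up 64.0% of the bases before Acadm, 60.4% before Acads, 68.0% before Acadl and 49.6% before Acadvl.

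The next steps of the spiral, hydration, the second oxidation and thiolysis, had 5 genes here. All 5 had a log2 fold change below 0, between -0.64 and -0.08, against 46% of all genes tested, and none passed the edgeR test. In 4 of the 5, all Ksp-Cre mice lay below both controls, against 21.3% of all genes tested. Hadh, the 3-hydroxyacyl-CoA dehydrogenase for medium and short chains, was at 424 and 444 CPM in the Prdm16fl/fl mice and at 275, 293 and 335 CPM in the Ksp-Cre mice. The 2 controls were close to each other and all 3 Ksp-Cre mice lay below them (log2 fold change -0.53 ± 0.14 SE, edgeR adjusted p = 0.127). Acaa2, the thiolase for medium chains, was at 169 and 221 CPM against 116, 97.3 and 162 CPM, with mouse 3 just under the lower control (log2 fold change -0.64 ± 0.24 SE, edgeR adjusted p = 0.234).

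Hadha and Hadhb encode the α and β subunits of the trifunctional protein, which handles long chains, and lie head to head on chromosome 5. In GRCm38.p6 their promoter windows share 228 bases, chr5:30155003-30155230. Hadha was at 246 and 223 CPM against 198, 215 and 254 CPM, so mouse 3 was above both controls, and Hadhb was at 193 and 199 CPM against 153, 148 and 180.0 CPM, with all 3 below. Their log2 fold changes were -0.08 ± 0.15 and -0.29 ± 0.13 (SE), and -0.18 and -0.38 without mouse 3, where Hadhb was called (edgeR adjusted p = 0.0285) and Hadha was not (0.267). Echs1, the short-chain enoyl-CoA hydratase, stood at -0.43.

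A group of 3 auxiliary enzymes rearranges the double bonds of unsaturated chains so that the spiral can go on. Decr1, the 2,4-dienoyl-CoA reductase, was at 260.1 and 356 CPM in the Prdm16fl/fl mice and at 201, 237 and 239 CPM in the Ksp-Cre mice. All 3 lay below both controls (log2 fold change -0.45 ± 0.18 SE, edgeR adjusted p = 0.251). Eci1, an enoyl-CoA isomerase, was at 94.4 and 135 CPM against 67.3, 81.5 and 108 CPM, and its paralog Eci2 was at 131 and 149 CPM against 108, 120.2 and 229 CPM. In both isomerase genes Ksp-Cre mice 1 and 2 lay below the controls, whereas mouse 3 lay between them for Eci1 and above them for Eci2, whose log2 fold change was 0.12 with and -0.29 without it. Eci1 stood at -0.43 (edgeR adjusted p = 0.399) and, without mouse 3, at -0.62, where it was called (0.0350).

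Of the carnitine shuttle, Cpt2 was at 148 and 179 CPM in the Prdm16fl/fl mice and at 88.8, 113 and 159 CPM in the Ksp-Cre mice. Mouse 3 again lay among the controls and the other mice below them (log2 fold change -0.44 ± 0.25 SE, edgeR adjusted p = 0.401, and -0.69 without mouse 3, where it was called at adjusted p = 0.0122). Mlycd, which removes malonyl-CoA, the inhibitor of CPT1, had the lowest TPM of the 36 and lay at 16.4 and 11.8 CPM against 11.7, 13.2 and 15.7 CPM. Its groups overlapped throughout, with a log2 fold change of -0.06, or -0.18 without mouse 3.

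Electrons leave the acyl-CoA dehydrogenases through the electron transfer flavoprotein, a dimer of the products of Etfa and Etfb, and pass to ubiquinone through Etfdh. By TPM, Etfb ranked behind Slc27a2 alone among the 36. It was at 416 and 537 CPM in the Prdm16fl/fl mice and at 246, 248 and 234 CPM in the Ksp-Cre mice. The Ksp-Cre mice were close to each other and below both controls, and the log2 fold change of -0.97 ± 0.15 (SE) lay at the threshold without passing it (edgeR adjusted p = 0.0505). Etfa, at 291 and 330 CPM against 177, 193 and 206 CPM, had a log2 fold change of -0.69 ± 0.13 (SE, edgeR adjusted p = 0.0695). Etfdh was at 144 and 149 CPM against 115, 138 and 231 CPM, so that only mouse 3 exceeded the controls (log2 fold change 0.14 ± 0.30 SE, edgeR adjusted p = 0.835, and -0.21 without that mouse). Both subunits of the flavoprotein were called without mouse 3 (edgeR adjusted p = 0.0033 for Etfa and 0.0029 for Etfb), and Etfdh was not (0.224).

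The 8 acyl-CoA synthetases and the thioesterase Acot13 had a median log2 fold change of -0.94. In 7 of the 9, the genotypes did not overlap and the Ksp-Cre mice were lower, against 21.3% of all genes tested. The group holds both genes called with all 5 libraries. Acsm2, a mitochondrial synthetase for medium-chain acids that the proximal tubule expresses strongly, was at 2289.6 and 2072 CPM in the Prdm16fl/fl mice and at 697, 779 and 741 CPM in the Ksp-Cre mice. The gap between the groups far exceeded the spread within either, and the level fell 2.95-fold (log2 fold change -1.56 ± 0.15 SE, edgeR adjusted p = 0.0327). Acot13, a thioesterase that frees fatty acids from coenzyme A, was at 119 and 135 CPM against 70.3, 71.9 and 58.8 CPM. It also showed little spread within groups and fell 1.90-fold (log2 fold change -0.93 ± 0.14 SE, edgeR adjusted p = 0.0476). Both calls held without Ksp-Cre mouse 3 and were lost when any other library was left out, with edgeR adjusted p from 0.117 to 0.485 for Acsm2 and from 0.136 to 0.521 for Acot13. The call of Acot13, but not that of Acsm2, was also lost with scaling by library size alone (edgeR adjusted p = 0.0844), with upper quartile scaling (0.0554) and after correction for gene length and GC content, where its log2 fold change was -0.57 (0.0889).

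Acsm1, Acsm2, Acsm3 and Acsm5 are medium-chain synthetase paralogs that lie side by side, from position 119125354 to 119384119 of chromosome 7 as the deposited tables number it. Acsm3 was at 104 and 178 CPM against 29.5, 53.1 and 34.1 CPM, and had the largest log2 fold change of the 36 in size, -1.86 ± 0.32 (SE, edgeR adjusted p = 0.0563). Acsm5 was at 67.2 and 72.2 CPM against 21.2, 35.3 and 21.6 CPM (-1.42 ± 0.24 SE, edgeR adjusted p = 0.0548), and Acsm1 at 141.5 and 154 CPM against 70.2, 85.7 and 39.8 CPM (-1.18 ± 0.30 SE, edgeR adjusted p = 0.120). All 4 genes of the cluster were below the controls in all 3 Ksp-Cre mice. How the authors' counting treated reads that match more than 1 paralog is not given in the sources used here. The effect of such reads on the values of the 4 genes was not tested.

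RefSeq gives Acsm2 2 transcription starts. The 250 bases before each are shown because it had the lowest adjusted p of the 36. In GRCm38.p6 they lie on the plus strand at chr7:119554090-119554339 and chr7:119561458-119561707, with capitals used as above.
Acsm2 start 1: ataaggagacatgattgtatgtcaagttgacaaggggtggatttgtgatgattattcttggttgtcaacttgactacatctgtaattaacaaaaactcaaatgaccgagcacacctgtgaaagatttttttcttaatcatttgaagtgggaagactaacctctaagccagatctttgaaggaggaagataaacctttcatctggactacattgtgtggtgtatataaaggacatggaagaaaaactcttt
Acsm2 start 2: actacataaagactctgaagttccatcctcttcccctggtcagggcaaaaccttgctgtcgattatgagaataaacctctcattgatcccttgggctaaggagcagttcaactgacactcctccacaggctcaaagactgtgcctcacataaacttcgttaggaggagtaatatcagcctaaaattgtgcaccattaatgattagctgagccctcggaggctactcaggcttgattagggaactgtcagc
Neither stretch holds the hexamer, and G and C made up 36% and 46.4% of their bases, less than before any of the 4 dehydrogenase genes shown. No promoter of Acot13 was used here.

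Acss1, which activates acetate in mitochondria, stood at -0.94 (edgeR adjusted p = 0.0606) and Acsf3, which activates malonate, at -0.65 (edgeR adjusted p = 0.0746), both without overlap. Acsf2 had a log2 fold change of 0.18, or -0.20 without mouse 3, and Acsl1 one of 0.90. Acsl1, the chief long-chain synthetase of oxidative tissues, was at 94.2 and 101 CPM in the Prdm16fl/fl mice and at 86.3, 106 and 354 CPM in the Ksp-Cre mice. Mouse 3 alone was far above the controls, and without it the log2 fold change was -0.016 (edgeR adjusted p = 0.941). Mouse 3 thus had the long-chain synthetase above the controls and the 4 Acsm genes below them.

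**Figure D2:**
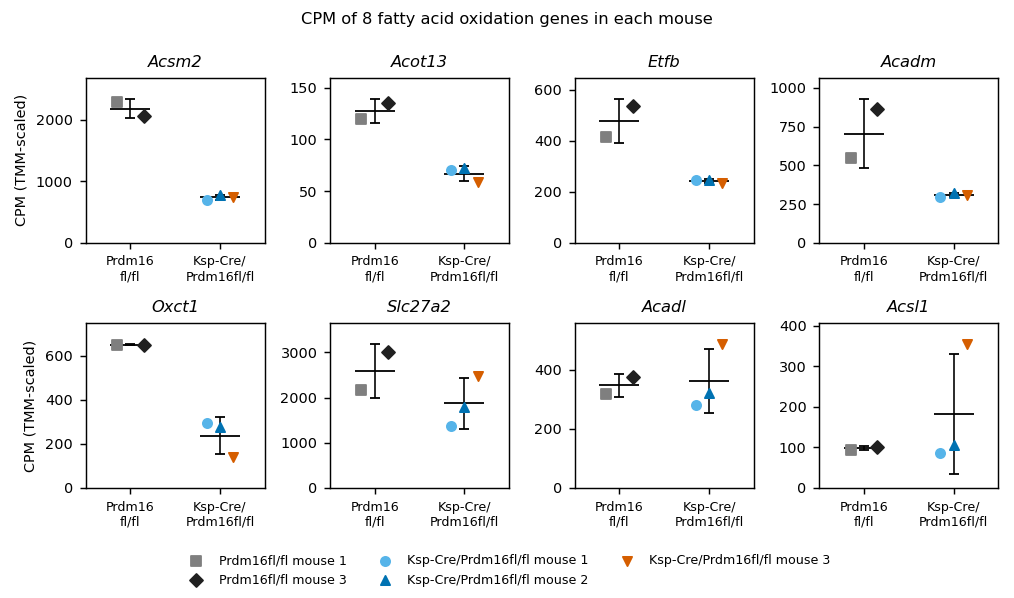
CPM of 8 of the genes in each mouse, 1 panel per gene with its own axis from 0. Symbols are mice, long bars are group means and whiskers are SD (n = 2 and n = 3); Acsm2, Acot13, Etfb, Acadm and Oxct1 are lower in all 3 Ksp-Cre mice, while mouse 3 reaches 354 CPM for Acsl1 and 486 CPM for Acadl.

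The 5 uptake and binding genes ranged in log2 fold change from -1.12 to 0.96. Slc27a2, a very-long-chain acyl-CoA synthetase and fatty acid transporter of the proximal tubule, had by far the highest level of the 36 and made up 22.4% and 25.7% of their summed TPM in the Prdm16fl/fl mice and 23.0%, 26.7% and 30.7% in the Ksp-Cre mice. It was at 2168 and 3001 CPM against 1368, 1779 and 2480.0 CPM. The controls lay far apart, mice 1 and 2 lay below both and mouse 3 between them (log2 fold change -0.46 ± 0.29 SE, edgeR adjusted p = 0.445). Without mouse 3 its log2 fold change was -0.71 and it was called (edgeR adjusted p = 0.0321). Fabp3, the heart-type fatty acid binding protein, was at 85.7 and 78.7 CPM against 49.95, 32.0 and 31.8 CPM, and was the member of this group without overlap (log2 fold change -1.12 ± 0.22 SE, edgeR adjusted p = 0.0726).

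Cd36, the fatty acid translocase, was at 256 and 279.8 CPM in the Prdm16fl/fl mice and at 139, 241 and 343 CPM in the Ksp-Cre mice. The spread among those 3 mice was wider than the gap between the group means (log2 fold change -0.15 ± 0.35 SE, edgeR adjusted p = 0.848, and -0.50 without mouse 3, at 0.143). Slc27a4, another transporter of the family, differed little in any mouse, with values from 50.9 to 64.6 CPM and a log2 fold change of 0.08, or -0.0029 without mouse 3. Fabp1, the liver-type binding protein, was close to the limit of detection, with 7 and 35 reads in the Prdm16fl/fl mice and 45, 76 and 24 in the Ksp-Cre mice. Its log2 fold change of 0.96 ± 0.74 (SE, edgeR adjusted p = 0.526) was the highest of the 36, but the 2 controls differed more from each other than the group means did.

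Ketone body enzymes had the lowest median of the 8 groups. Oxct1, which activates acetoacetate for oxidation, was at 650.2 and 651 CPM in the Prdm16fl/fl mice and at 297, 275 and 140.3 CPM in the Ksp-Cre mice. The controls were nearly equal, and mouse 3 had less than either other Ksp-Cre mouse (log2 fold change -1.46 ± 0.31 SE, edgeR adjusted p = 0.0851). Bdh1, the mitochondrial 3-hydroxybutyrate dehydrogenase, was at 70.7 and 94.6 CPM against 38.5, 39.1 and 26.9 CPM, with the same order (log2 fold change -1.24 ± 0.21 SE, edgeR adjusted p = 0.0548). Without mouse 3 their log2 fold changes were smaller in size, -1.18 for Oxct1 and -1.09 for Bdh1. Both were called in that fit (edgeR adjusted p = 6.0e-04 for Oxct1 and 0.0019 for Bdh1).

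**Figure D3:**
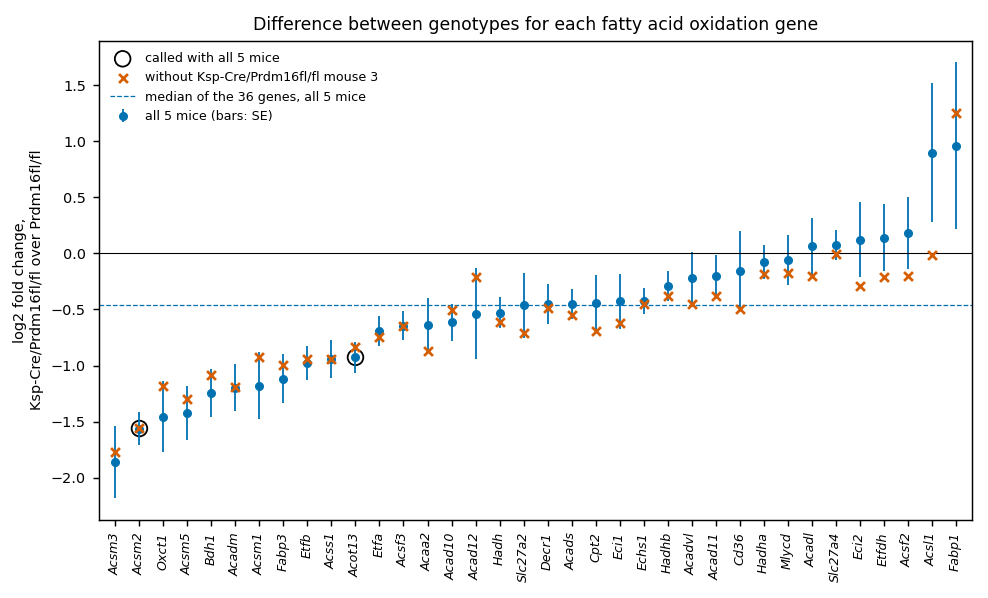
Fitted log2 fold change of each gene, Ksp-Cre over Prdm16fl/fl, with its SE (blue, all 5 mice) and the value without Ksp-Cre mouse 3 (orange crosses); circles mark the genes called with all 5 mice and the dashed line is the median of all 36, -0.46. With all 5 mice 7 genes lie above 0, and without mouse 3 Fabp1 is the 1 gene left there.

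Mouse 3 divided the members. It lay above both Prdm16fl/fl mice for 10 of the 36 genes, against 42.8% of all genes tested: Acadl, Acadvl, Acad11, Hadha, Eci2, Etfdh, Acsl1, Slc27a4, Cd36 and Acsf2. The medians of these 10 genes, relative to the Prdm16fl/fl mean on the log2 scale, were -0.33 in mouse 1, -0.14 in mouse 2 and 0.42 in mouse 3. The other 26 genes had medians of -0.77, -0.62 and -0.74. For 7 of the 10, mice 1 and 2 lay below both controls while mouse 3 lay above, so the Ksp-Cre mice fell on opposite sides. Mice 1 and 2 by themselves were below both controls for 30 of the 36 genes, against 30.7% of all genes tested. The division of the 36 by the value in mouse 3 is a description of that library and was not tested. The 10 were picked for lying above both controls in mouse 3, so their median there is above 0 by that choice. The lower median of the other 26 in mouse 3 also follows in part from it.

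Genes that PPARα is known to activate, from a list of 26 that leaves out the 36, showed the largest values in mouse 3. Their median, of the 25 tested, relative to the Prdm16fl/fl mean was -0.26, 0.08 and 1.59 in Ksp-Cre mice 1, 2 and 3, and 22 of the 25 lay above both controls in mouse 3, against the 42.8% of all genes given above. None of the 25 passed the edgeR test in either direction. At an unadjusted p under 0.05, 2 were higher and 1 lower, against 7.64% and 11.2% of all genes tested. DESeq2 called none in either direction. The largest differences were in Pdk4, the kinase that blocks pyruvate oxidation, at 19.1 and 32.6 CPM against 41.9, 96.4 and 414 CPM (log2 fold change 2.83 ± 1.01 SE, edgeR adjusted p = 0.214), Plin2, a lipid droplet coat protein, at 131 and 166 CPM against 193, 297 and 1899 CPM (2.42 ± 1.04 SE, edgeR adjusted p = 0.283), and Cidec, at under 1 CPM in the first 4 mice and 3.60 CPM in mouse 3. Pdk4 and Plin2 lay above the controls in all 3 Ksp-Cre mice. So did 4 of the 25 in all, against 20.3% of all genes tested and none of the 36. Without mouse 3 the log2 fold changes of Pdk4 and Plin2 were 1.42 and 0.73, and both were called (edgeR adjusted p = 0.0295 and 0.0336). That fit called 3 of the 25 higher and 1 lower, against 7.82% and 11% of all genes tested in it.

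Cpt1a, the rate-limiting step of long-chain entry and not among the 36, was at 375 and 343 CPM in the Prdm16fl/fl mice and at 305, 337 and 923 CPM in the Ksp-Cre mice. Mouse 3 alone was above the controls (log2 fold change 0.54 ± 0.50 SE, edgeR adjusted p = 0.60, and -0.16 without mouse 3). Ppara was at 117 and 122 CPM against 75.2, 109 and 158 CPM (log2 fold change -0.07, edgeR adjusted p = 0.924).

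**Figure D4:**
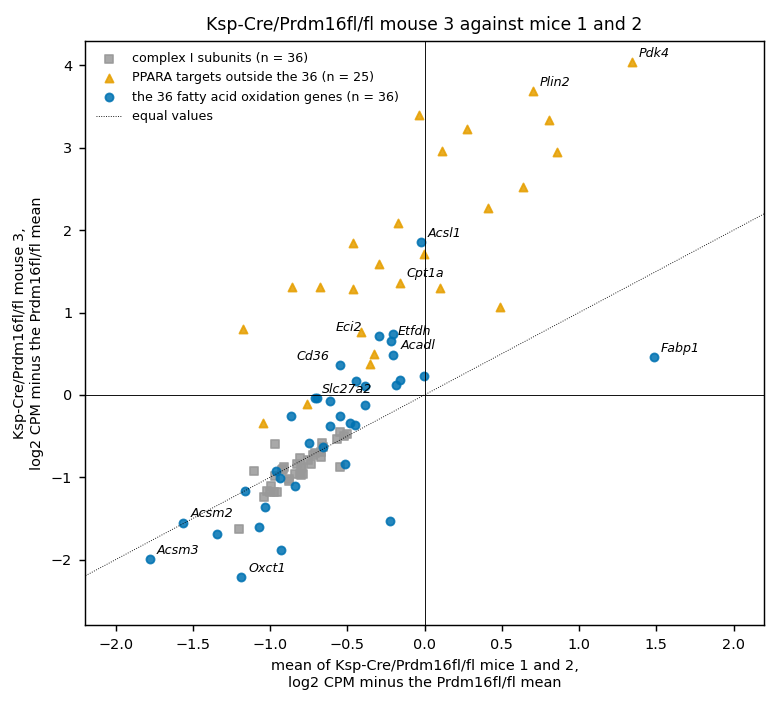
Level in Ksp-Cre mouse 3 (vertical axis) against the mean of mice 1 and 2 (horizontal axis), both as log2 CPM minus the Prdm16fl/fl mean, for the 36 genes, 25 PPARα targets outside them and 36 complex I subunits; the dotted line marks equal values. Complex I subunits lie near the line and all 25 PPARα targets above it, while 24 of the 36 genes lie above and 12 below, from 1.88 above (Acsl1) to 1.31 below (Acad12).

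The direct repeat bound by PPARα with RXR was searched on both strands of the RefSeq promoters, 250 bases before to 50 after the start, with up to 2 mismatches to AGGTCANAGGTCA. The table held 36 windows of 33 of the genes, and not Acot13, Acaa2 or Decr1. A match was found in 4 of the 36 windows (11.1%), against 3.86% of 32851 windows of all genes. The 4 sites are shown in the direction of the repeat because their genes had unlike values, with bases that match the repeat in capitals and mismatches and the spacer in lower case.
Cd36: AaGTCAgAGGcCA
Echs1: AGGTCAcgGGTCc
Etfa: AGGgCAaAGGTaA
Fabp1: AGGcCAtAGGTCA
They lie at chr5:17835947-17835959 (63 bases before the start of Cd36), chr7:140116492-140116504 (83 before Echs1), chr9:55512308-55512320 (77 before Etfa) and chr6:71199812-71199824 (67 before Fabp1), and all but that of Echs1 read against the strand of the gene. Etfa and Echs1 were lower in all 3 Ksp-Cre mice, Cd36 was above the controls in mouse 3 alone, and Fabp1 overlapped. The hexamer AGGTCA alone, which lies inside the repeat, was in 7 windows (19.4%) against 16.3% of all, and the ERR site TCAAGGTCA, bound by estrogen-related receptors, in none of the 36 against 0.423% of all. A match of letters is not a bound site, and the windows do not reach distant elements.

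Other genes of fatty acid and acyl-CoA metabolism, 50 in number with 42 tested, had a median log2 fold change of -0.34. Of the 42, 26 were lower, against 46% of all genes tested. Acat1, the mitochondrial acetoacetyl-CoA thiolase, fell from 427 and 517 CPM to 227, 241 and 194 CPM (log2 fold change -1.10 ± 0.16 SE, edgeR adjusted p = 0.0463), and Mcee, an epimerase of propionate breakdown, fell by 0.94 on the log2 scale (edgeR adjusted p = 0.0447). These were the 2 genes of this list that passed the test, both lower, against 0.872% of all genes tested. Larger differences that did not pass were those of Eci3, a paralog of Eci2, at -2.06 (edgeR adjusted p = 0.106) and Acot1 at 1.95 (0.362). Acot1 was highest in mouse 3, at 299.9 CPM, and also stands in the list of PPARα targets.

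Peroxisomes shorten the very long chains before mitochondria finish them. Of 24 peroxisomal oxidation genes, 16 were lower, against 46% of all genes tested, with a median of -0.17. In mouse 3, 12 of the 24 lay above both controls, against 42.8% of all genes tested. Over the 24, the medians relative to the Prdm16fl/fl mean were -0.74, -0.35 and 0.08 in Ksp-Cre mice 1, 2 and 3. Nudt19, a coenzyme A hydrolase of kidney peroxisomes, was the 1 gene called of the 24, against 0.872% of all genes tested called lower. It fell from 1252 and 1833 CPM to 376, 524 and 524 CPM (log2 fold change -1.70 ± 0.24 SE, edgeR adjusted p = 0.0443). Pecr and Amacr had log2 fold changes of -1.90 and -1.69 (edgeR adjusted p = 0.0610 and 0.0573), and neither overlapped between the genotypes.

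Among 27 regulators of fatty acid oxidation, 26 tested, 14 were lower, against 46% of all genes tested. Their median was -0.08, and edgeR called none. At an unadjusted p under 0.05, 5 were lower and 1 higher, against 11.2% and 7.64% of all genes tested. DESeq2 called 1 lower, against 5.26%. Ppargc1a, the coactivator PGC-1α, was at 72.6 and 71.8 CPM in the Prdm16fl/fl mice and at 51.4, 55.5 and 53.2 CPM in the Ksp-Cre mice. The 2 groups did not overlap and varied little within themselves, with a log2 fold change of -0.44 ± 0.10 (SE, edgeR adjusted p = 0.102). Hnf4a, a nuclear receptor of proximal tubule identity, was at 654 and 664 CPM against 401, 579.9 and 550.4 CPM (log2 fold change -0.37, edgeR adjusted p = 0.356). The largest differences were in Sirt3, a mitochondrial deacetylase, at -0.95 (edgeR adjusted p = 0.0541), Lpin1 at -0.63 and Esrrb at -0.59.

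The pathways that take up the products of beta-oxidation were lower more evenly. All 36 complex I subunits had a log2 fold change below 0, against 46% of all genes tested, with a median of -0.84. In all 36 the Ksp-Cre mice lay below both controls, against 21.3% of all genes tested. Of them, 11 were called lower, against 0.872%: Ndufa1, Ndufa2, Ndufa5, Ndufa6, Ndufa10, Ndufa11, Ndufa13, Ndufb4, Ndufb10, Ndufc1 and Ndufs6. The largest differences were in Ndufc1 at -1.32, Ndufb2 at -1.11, which did not pass the test (edgeR adjusted p = 0.0516), and Ndufa5 at -1.07. All 18 genes of the TCA cycle were lower, against 46% of all genes tested, with a median of -0.58. Idh3b was the 1 gene called (log2 fold change -0.77 ± 0.11 SE, edgeR adjusted p = 0.0491), against 0.872% of all genes tested. Sdhb stood at -0.96 and Idh2 at -0.78 without a call. Relative to the Prdm16fl/fl mean, complex I had medians of -0.74, -0.92 and -0.88 in Ksp-Cre mice 1, 2 and 3, and the TCA cycle -0.56, -0.64 and -0.70. Over the 36 genes the medians were -0.69, -0.49 and -0.30, so mouse 3 was nearest to the controls there, as it was for the peroxisomal genes, and not for complex I or the TCA cycle. Inside the 36 the groups differed in this, since mouse 3 was farthest from the controls for the synthetases and thioesterase (-0.85, -0.82 and -1.11) and for the ketone body genes (-1.11, -1.15 and -1.91).

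**Figure D5:**
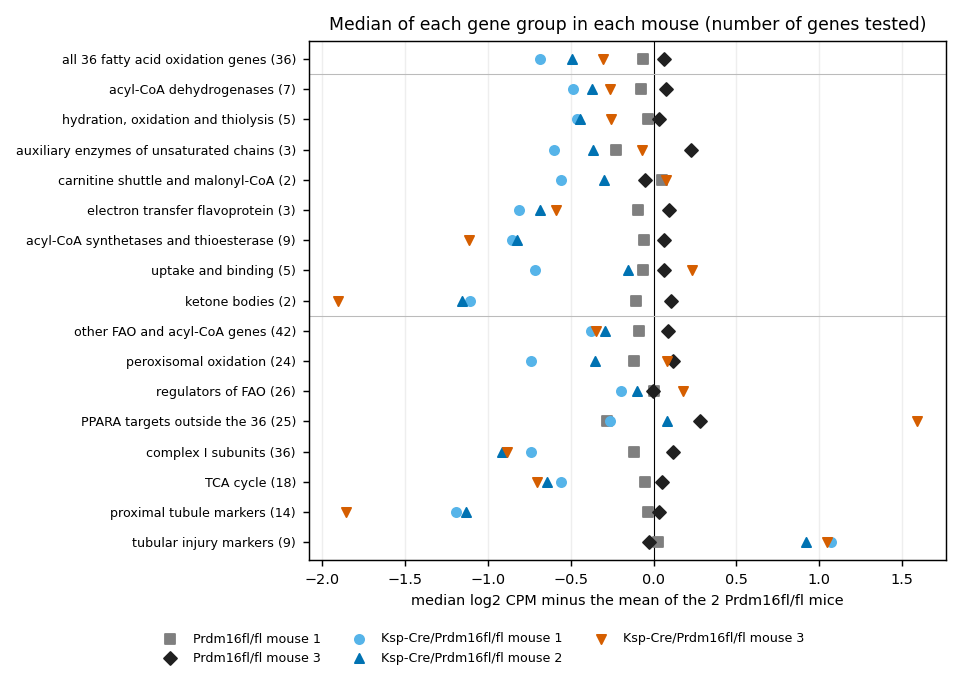
Median of each gene group in each mouse, as log2 CPM minus the mean of the 2 Prdm16fl/fl mice, with the number of genes tested in brackets: all 36 genes, their 8 roles, 6 other lists and 2 marker lists. In mouse 3 the median is -1.91 for ketone body genes and 0.23 for uptake and binding genes, and PPARα targets stand at 1.59.

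Markers of several cell types moved with the genotype beside these genes. The 14 proximal tubule markers summed to 20487 and 23075 CPM in the Prdm16fl/fl mice and to 8824, 10053 and 13315 CPM in the Ksp-Cre mice. All 14 had a log2 fold change below 0, against 46% of all genes tested, with a median of -1.31. Slc22a8, Fbp1 and Miox were called lower, 3 of the 14 against 0.872% of all genes tested. Relative to the Prdm16fl/fl mean, the medians of the 14 were -1.19, -1.13 and -1.85 in Ksp-Cre mice 1, 2 and 3. By that measure mouse 3 was farthest from the controls, while by the sum it was nearest. The 9 tubular injury markers summed to 15258 and 15841 CPM against 32557, 33091 and 38429 CPM with all 9 log2 fold changes above 0 and a median of 1.13. None passed the edgeR test. At an unadjusted p under 0.05, 8 were higher, against 7.64% of all genes tested, and DESeq2 called 7 higher, against 1.83%. Markers of the thick ascending limb, the distal convoluted tubule and the collecting duct were lower too, with medians of -0.69, -1.0 and -0.69, and those of fibroblasts and pericytes and of macrophages stood at 0.54 and 0.25. Podocyte, endothelial and lymphocyte markers had medians of -0.64, -0.13 and -0.26. In edgeR, Nphs1, the podocyte gene of nephrin, was the 1 gene called among the marker lists other than that of the proximal tubule (log2 fold change -0.85 ± 0.11 SE, edgeR adjusted p = 0.0412). The part of these cell types in the values of the 36 genes was not tested.

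Fat and muscle markers gave little signal, and the sums of liver and of erythroid markers, at low levels, did not overlap between the genotypes. Of 8 adipocyte markers, Adipoq, Plin1, Cidea, Ucp1, Retn, Cfd and Lep were under 1 CPM in all 5 mice, and Lipe, the 1 gene tested, had a log2 fold change of 0.35. The muscle markers Ckm, Mb, Tnnt3 and Myh4 were likewise under 1 CPM in all 5 mice. Liver markers summed to 86.4 and 142 CPM against 45.4, 47.3 and 48.9 CPM, with a median log2 fold change of -1.43 over the 4 tested. Erythroid markers summed to 6.67 and 10.8 CPM against 151, 150.3 and 40.5 CPM, with a median of 3.93. All 5 lay above the controls in every Ksp-Cre mouse, against 20.3% of all genes tested. The edgeR test called none of either list. At an unadjusted p under 0.05, 3 liver genes were lower and 5 erythroid genes higher, against 11.2% and 7.64% of all genes tested. DESeq2 called 2 liver genes lower and all 5 erythroid genes higher, against 5.26% and 1.83%. Their part in the values of the 36 genes was not tested.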

How the data were processed

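Messenger RNA from the kidney cortex of 5 mice was sequenced as 1 library per mouse, and libraries were grouped by the genotype in their labels. The authors deposited, for each library, gene counts, TPM and FPKM. The submitters' processing notes name CASAVA, featureCounts 2.0.1, DESeq2 1.16.1 and the human build hg38, although the genes and chromosomes listed are those of mouse. The mouse build, the aligner and any use of strand are not given in the sources used here, so overlapping genes are less certain. Positions of genes are those of the deposited tables and those of promoters are RefSeq's in GRCm38.p6, and the 2 are not mixed, since the start agreed for 1 of the 36 genes. The deposited TPM and FPKM values were recomputed from the counts and differed by rounding alone. In the files, 5 genes ran over several lines and were rejoined. No mitochondrially encoded gene is listed.

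Counts were filtered with filterByExpr, scaled by TMM and tested across all 16394 genes with the quasi-likelihood test of edgeR 4.0.16 (R 4.3.3), with no covariate. The threshold for a call was a p under 0.05 after Benjamini-Hochberg adjustment. The replicates are separate mice. The test was tried on simulated counts with 200 changed genes first. CPM values are per 1000000 TMM-scaled counts, log2 CPM has a prior count of 2, and the SE is the log2 fold change divided by the square root of F. TPM was used to rank genes by level. Among the libraries, no pair agreed within sampling noise. With 2 mice against 3, the smallest one-sided exact permutation p is 0.1, so no such test was used. Alternatives were DESeq2 1.42.0, other scalings and filters, each library left out, a replicate block, a loess correction (span 0.3) for the length and GC content of genes and a call that also needs a log2 fold change of at least 1.

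The 36 genes and the lists beside them were chosen with earlier results of these data known, and no test was made over any list. All 36 genes are named by role. The rule gave values in every mouse to called members and the 2 of highest TPM in each role, and those of other members were added after their values were seen. From the 6 other lists of metabolic genes and regulators, called genes and the 3 largest differences are named, apart from 1 gene that is not reported here, with Prdm16, Cpt1a, Ppara, Ppargc1a and Hnf4a always. Of the lists of cell type markers, called genes are named.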

Additional observations from a re-analysis of the deposited data

How the results depend on the processing

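The median log2 fold change of the 36 genes was below 0 in every alternative run, from -0.63 (without Prdm16fl/fl mouse 1) to -0.35 (scaling by library size alone), against -0.46 as reported. Scaling by library size alone also moved the median of all genes from 0.04 to 0.15. The number of members called lower, 2 as reported, was 14 with DESeq2, 10 with no filter beyond 1 count, 3 with at least 10 counts in every library, and 1 each with scaling by library size, with upper quartile scaling, after correction for the length and GC content of genes, and where a log2 fold change of at least 1 was also required. Leaving out 1 library at a time gave 0 to 24 calls. 

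With a replicate block on the mouse numbers that both genotypes share, edgeR called 0 members and 0 of all 16394 genes lower, with 16 members lower at an unadjusted p under 0.05, against 8.44% of all genes, and the median was -0.47. The numbers are shared by 2 pairs only. Across genes, the difference of mouse 1 from mouse 3 in 1 genotype correlated with that in the other at -0.014. That is a single difference per genotype, with Ksp-Cre mouse 3 in 1 of them, so it cannot show whether the mice were paired. The study's methods name littermate controls and do not say which of these mice were littermates.

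Over 431 values of single members under the alternatives, 361 kept direction and call, 43 became called, 13 lost the call and 14 changed direction, and 27 of the 36 members never changed direction. Leaving out 1 library at a time, the log2 fold change ran from -0.20 to 0.22 for Acadl, -0.29 to 0.32 for Eci2, -0.21 to 0.33 for Etfdh, -0.016 to 1.24 for Acsl1 and -0.20 to 0.35 for Acsf2, lowest in each case without Ksp-Cre mouse 3. It ran from -0.18 to 0.0021 for Hadha, -0.28 to 0.20 for Mlycd, -0.031 to 0.19 for Slc27a4 and -0.50 to 0.13 for Cd36, and, outside the 36, from -0.16 to 0.81 for Cpt1a and -0.37 to 0.16 for Ppara. Scaling by library size alone gave 0.028 for Hadha, 0.042 for Mlycd and 0.030 for Ppara. The cause of these changes was not tested, beyond the library or scaling that each alternative leaves out or replaces.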
